A study of Mus musculus with 16 samples.

Results

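Haematopoietic stem cells (HSC) of old wild-type mice were compared with HSC of young wild-type mice to describe how the transcripts of the blood stem cell differ with age. The old HSC came from mice of 24 months (3 arrays) and the young HSC from mice of 9 to 12 weeks (3 arrays). All 6 samples are labelled as wild type, female, C57Bl6 and bone marrow, and the replicates are labelled as biological. The cells were sorted straight into RNA extraction, and biotinylated cRNA from 4000 to 7000 cells per sample was hybridised to Affymetrix mouse expression arrays. These arrays were picked by their titles and are 6 of the 16 in the series. The other 10 hold HSC of 32-week mutator mice (Polgtm1Lrsn-/-), HSC of 32-week wild-type mice (Polgtm1Lrsn+/+) and lymphoid progenitors, and their values are used only where stated. The sources used here do not give the surface markers of the sort, or whether a replicate pooled several mice.

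HSC sit at the top of the blood lineages. They divide rarely in the adult marrow, are held there by contacts with niche cells and by chemokines, and give rise to every blood cell type. In old mice the number of cells with an HSC surface phenotype increases while each of them repopulates a host less well, and their output leans towards myeloid cells and platelets and away from lymphocytes. Aged mouse HSC are known for raised levels of genes for adhesion, platelet functions and detoxification, of which the adhesion receptor gene Selp, the complement-binding chaperone gene Clu and the clotting factor gene Vwf are often cited.

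The 6 arrays were alike in overall brightness, with median intensities of 24.6 to 25.4, and their number limits the precision. The labelled cell type was checked first. Kit, the stem cell factor receptor, gave intensities of 3850.4, 5399 and 3314 in old HSC, against 2391, 3603 and 3585 in young HSC (adjusted p 0.358). Flt3, a receptor of multipotent and lymphoid progenitors, gave 98.95, 62.7 and 127 in old HSC, against 179, 157 and 150.0 in young HSC (adjusted p 0.0803), and Cd48, a surface protein absent from most HSC, was at background in all old arrays. Xist, the RNA of the inactive X chromosome of females, lay between 3507 and 8823 on all 6 arrays. The known HSC surface gene Ly6a is unnamed here.

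The control transcripts for RNA length differed between the groups. The log2 ratio of the 3' to the 5' probe sets of actin was 2.20, 2.27 and 2.23 in old HSC, against 2.39, 2.61 and 2.62 in young HSC (means 2.23 ± 0.033 and 2.54 ± 0.129, SD, n = 3 each). For Gapdh it was 2.95, 2.97 and 2.93 in old HSC, against 3.15, 3.33 and 3.23 in young HSC (means 2.95 ± 0.017 and 3.24 ± 0.086). Both ratios were lower on every old array than on every young array. The exact two-sided permutation test gave p = 0.1 for each, which is the smallest p that 3 against 3 arrays allow. For the 3' over the middle probe sets the exact permutation p was 0.2 for actin and 0.3 for Gapdh. How far this difference in 3' bias enters the changes below was not tested.

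Some arrays stood apart within their group. The hybridisation spike-ins averaged 11.3 on the log2 scale on both old replicate 3 and young replicate 1, against 10.6 to 10.9 on the other arrays. The poly-A spike-ins, which are added to the RNA before labelling, averaged 9.28 and 8.69 on the same arrays, against 8.16 to 8.31 elsewhere. Young replicates 2 and 3 were the closest pair, with a correlation of 0.995 over all genes tested and an SD of their log2 differences of 0.186, where the other pairs within a group had SDs of 0.292 to 0.342. Genes of the immediate early response, which cells switch on within minutes of handling or stimulation, were highest on replicate 1 of both groups. Their mean log2 level over 23 genes was 10.62, 8.29 and 8.22 in old HSC, against 9.39, 7.93 and 7.8 in young HSC. The plot of list means by array shows these patterns beside the control ratios.

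**Figure D1:**
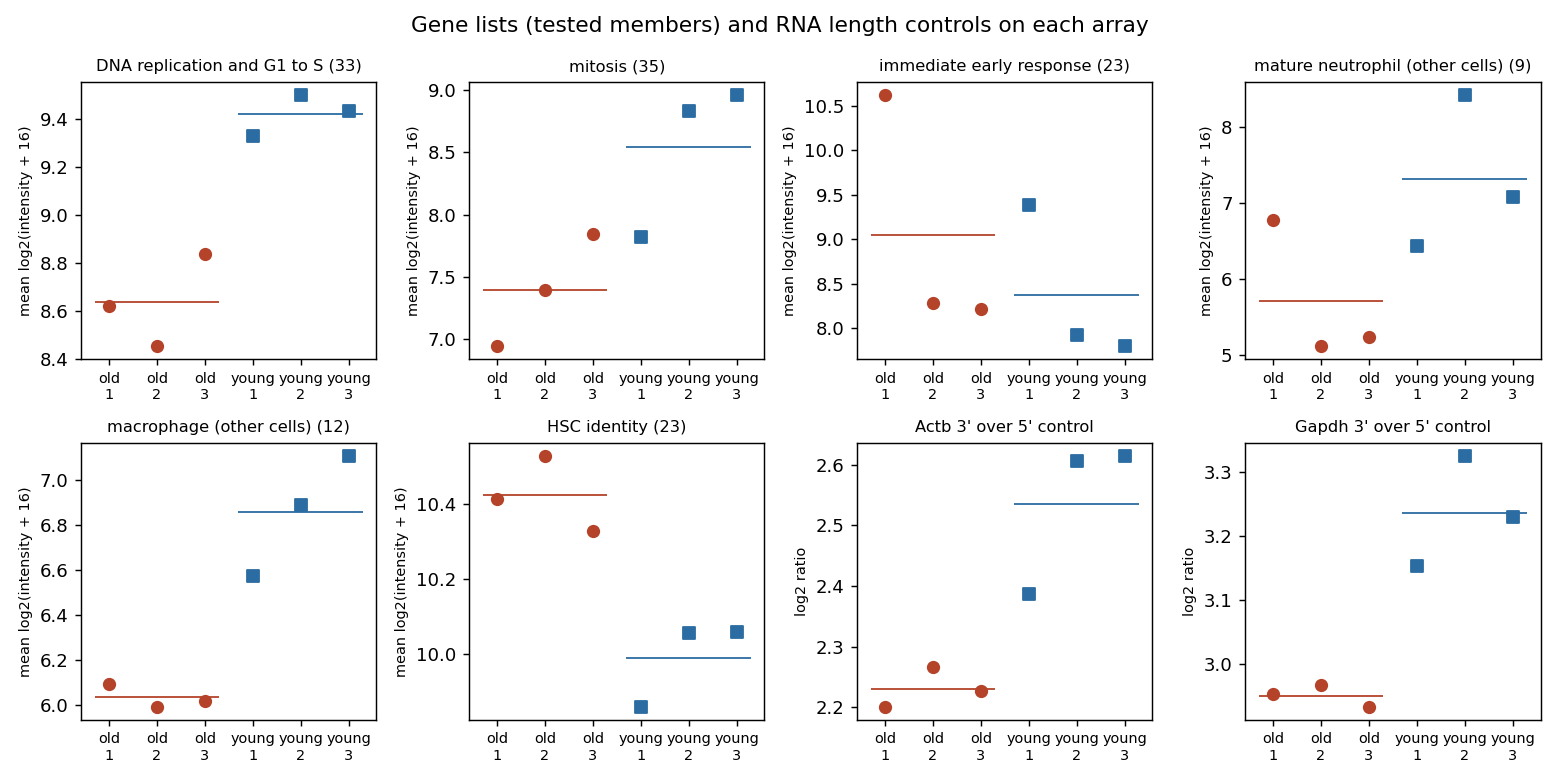
Mean log2(intensity + 16) of the tested members of 6 gene lists on each array, and the log2 ratios of the 3' to the 5' control probe sets of actin and Gapdh. Circles are old HSC and squares young HSC, lines are group means, and the number of genes in a list is in brackets. The replication genes, the HSC identity genes and both control ratios separate the groups on every array, while the mitosis list of young replicate 1 lies among the old arrays and the immediate early genes follow replicate 1 of both groups.

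Of 13009 genes tested, 676 were higher and 381 lower in old HSC at an adjusted p under 0.05 (limma, Benjamini-Hochberg). Together they are 8.13% of the genes tested, 5.2% higher and 2.93% lower. Changes are differences of log2(intensity + 16), old minus young, and a gene is said to have risen, fallen or been higher or lower only if it passed this threshold. The old and the young arrays did not overlap for 28.1% of the genes tested, and for every gene that passed. The rises were also the larger changes. Of the genes that passed, 210 were at least 2-fold higher and 80 at least 2-fold lower, and 50 rose by more than 2 on the log2 scale while 3 fell by more than that. The median log2 change over all genes tested was -0.005.

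The number of calls leaned on single arrays. Without old replicate 1, 440 genes were higher and 241 lower, without old replicate 2 the lower genes numbered 191, and without old replicate 3 they numbered 227. Without young replicate 2 the counts were 337 higher and 122 lower, and without young replicate 3 they were 385 and 129. Of the main calls, 304 higher and 104 lower genes were called in each of the 6 fits that left out 1 array. With both arrays of high spike-ins left out, 459 genes were higher and 310 lower.

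**Figure D2:**
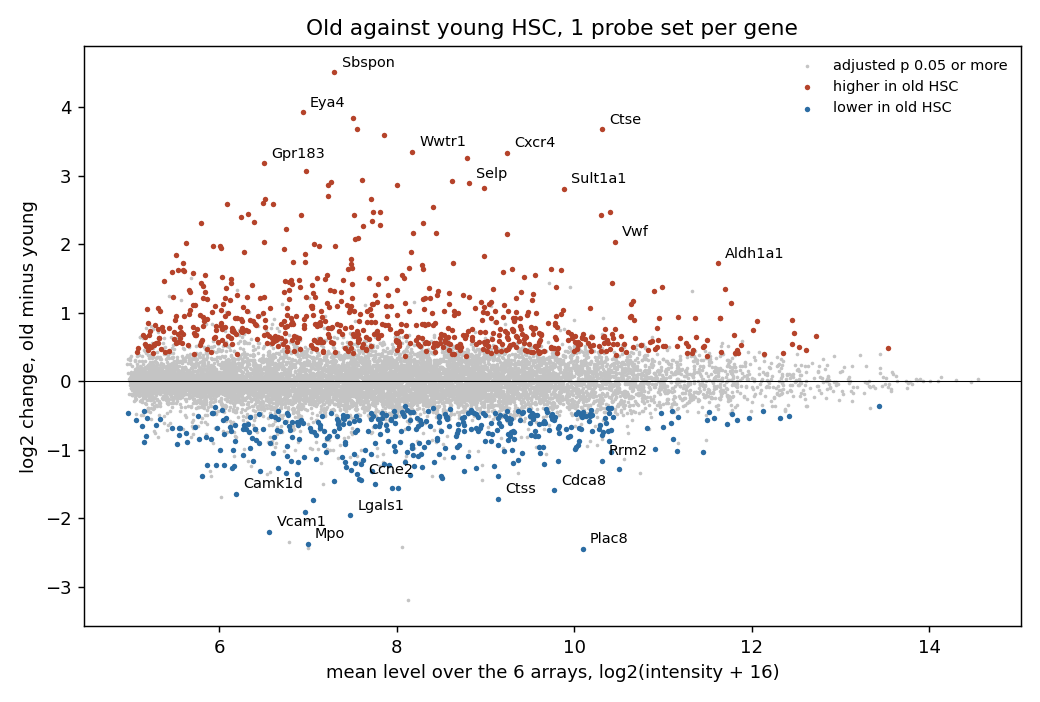
Change of each of the 13009 genes tested, as old minus young log2(intensity + 16), against its mean level over the 6 arrays. Red points (676) are higher and blue points (381) lower in old HSC at an adjusted p under 0.05. Called rises reach 4.51 (Sbspon) while called falls end at -2.44 (Plac8), and both occur at all levels.

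The largest rises included several genes of the cell surface and the surrounding matrix. Sbspon (chromosome 1), a secreted matrix protein with a thrombospondin domain, gave 948, 882 and 470.4 in old HSC, against 16.3, 14.1 and 20.6 in young HSC (log2 change 4.51, SE 0.246, adjusted p 7.58e-05). Fap (chromosome 2), a serine protease of the cell surface best known from activated fibroblasts, gave 928, 770.0 and 691 in old HSC, against 30.8, 71.3 and 56.9 in young HSC (log2 change 3.59, SE 0.226, adjusted p 0.000123). Cldn5 (chromosome 16), a tight junction protein of endothelium, gave 652, 227 and 285 in old HSC, against 36.3, 25.4 and 22.02 in young HSC (log2 change 3.07, SE 0.341, adjusted p 0.00179). No old array of these 3 came near a young one. Sbspon was at background on young replicates 1 and 2, so its change depends on the number added to the intensities. With 1 or 64 added in place of 16, the log2 change of Sbspon was 5.37 or 3.3. Tm4sf1 (chromosome 3), a membrane protein of the tetraspanin-like family, gave 498, 300.3 and 441 in old HSC, against 37.5, 35.9 and 46.6 in young HSC (log2 change 2.91, SE 0.183, adjusted p 0.000123). Selp (chromosome 1), the P-selectin that lets platelets and endothelium bind leukocytes, gave 1138, 1343 and 1144 in old HSC, against 117, 139 and 201 in young HSC (log2 change 2.89, SE 0.18, adjusted p 0.000123). Epcam (chromosome 17), an adhesion molecule of epithelia, gave 807, 175 and 336 in old HSC, against 53.4, 38.5 and 37.2 in young HSC (log2 change 2.7, SE 0.451, adjusted p 0.0109). The old arrays of Epcam were widely spread, yet each of these genes was called in all 6 fits with 1 array left out.

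Adhesion and matrix genes as a list had 17 higher (39.5%, against 5.2% of all genes) and 3 lower members (6.98%, against 2.93%) among 43 tested. Their median log2 change was 0.28 against -0.005 over all genes. The higher members also held the junction genes Jam2 (2.48), F11r (0.56) and Esam (0.42), and the integrin chains Itgb3 (1.63), Itga6 (1.18) and Itgb1 (0.65). Itgb3 gave 1847, 1313 and 1702 in old HSC, against 473, 598 and 459 in young HSC (adjusted p 0.00109). The lower members were Vcam1 (-2.19) and both chains of the leukocyte integrin LFA-1, Itgal (-0.66) and Itgb2 (-0.63). None of these 3 was called without old replicate 3 or without young replicate 2. Beside the junction and matrix genes, the markers of stroma and endothelium had 1 of 10 tested members higher and none lower (median -0.07). It was Kdr, the VEGF receptor of endothelium, which gave 95.2, 98.3 and 95.6 in old HSC, against 32.3, 40.02 and 38.7 in young HSC (log2 change 1.09, SE 0.0989, adjusted p 0.000805), apart on every array. Summed over the 18 stroma and endothelium markers on the arrays, intensities were 892, 826 and 849.9 in old HSC, against 784, 993 and 1141 in young HSC. These sums hold the stromal gene Cxcl12, which was brighter on young replicates 2 and 3 than on the other arrays. The part of these markers in the rises was not tested. F11r (0.44 to 0.64) and Vcam1 (-2.84 to -1.85) were not called without replicate 1, 2 or 3 of old HSC or replicate 2 or 3 of young HSC. Esam (0.36 to 0.45) was called in no fit with 1 array left out. Itgb1 (0.55 to 0.77) and Itgb2 (-0.74 to -0.57) were not called without replicate 1 or 3 of old HSC or replicate 2 or 3 of young HSC. Itgal (-0.75 to -0.59) was not called without replicate 3 of old HSC or replicate 2 of young HSC.

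Receptors gave the next group. Cxcr4 (chromosome 1), the receptor for the chemokine Cxcl12 that holds HSC in the marrow, gave 2057, 2043 and 1653 in old HSC, against 198, 167 and 159 in young HSC (log2 change 3.34, SE 0.129, adjusted p 1.1e-05). Gpr183 (chromosome 14), an oxysterol receptor that guides lymphocytes, gave 250.4, 262 and 257 in old HSC, against 14.8, 12.00 and 15.4 in young HSC, and since all young arrays were at background it was at least 15.1-fold higher in old HSC (adjusted p 3.3e-06). Osmr (chromosome 15), the oncostatin M receptor, gave 123, 135 and 203 in old HSC, against 10.4, 9.95 and 14.9 in young HSC and was at least 8.82-fold higher (adjusted p 0.000204). The old arrays of Gpr183 differed little among themselves, and no young array of either gene rose above background. Bmpr1a (chromosome 14), a receptor for bone morphogenetic proteins, gave 411, 475 and 493 in old HSC, against 64.1, 86.2 and 83.9 in young HSC (log2 change 2.34, SE 0.13, adjusted p 8.01e-05). Lpar6, a receptor for lysophosphatidic acid, gave 2092, 2348 and 2282 in old HSC, against 762, 849 and 848 in young HSC (log2 change 1.43, SE 0.1, adjusted p 0.000223), and the leukotriene receptor gene Cysltr2 gave 209, 200.1 and 240.3 in old HSC, against 66.5, 54.6 and 75.8 in young HSC (log2 change 1.51, SE 0.128, adjusted p 0.000586). All of these were called whichever array was left out.

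Among 26 tested chemokine and G protein-coupled receptors 8 were higher (30.8%, against 5.2% of all genes) and 2 lower (7.69%, against 2.93%), with a median of 0.2. The higher ones also held the prostaglandin E receptors Ptger4 (1.15) and Ptger3 (0.64), and the lower ones were the UDP-glucose receptor P2ry14 (-1.05) and the cannabinoid receptor Cnr2 (-0.68). Among 35 cytokine and growth factor receptors 6 were higher (17.1%) and 2 lower (5.71%), with a median of 0.15. Osmr rose with its signalling partner Il6st (0.82), the gp130 chain, and the growth hormone receptor gene Ghr (1.21) and insulin receptor gene Insr (0.66) rose too. The lower members were the myeloid receptors Csf2rb (-1.91), the shared chain of the IL-3 and GM-CSF receptors, and Csf1r (-1.17), the receptor for macrophage colony-stimulating factor. Csf1r was called in the 6-array fit at an adjusted p of 0.0455, close to the threshold. Insr (0.6 to 0.72) was not called without young replicate 2. Csf1r (-1.51 to -0.92) was not called without replicate 1, 2 or 3 of old HSC or replicate 2 or 3 of young HSC.

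Several enzymes rose strongly and evenly. Ctse (chromosome 1), the aspartic protease cathepsin E, gave 4258, 4890.1 and 4531 in old HSC, against 326, 360.0 and 333 in young HSC (log2 change 3.68, SE 0.1, adjusted p 3.3e-06). Sult1a1 (chromosome 7), a sulfotransferase that conjugates phenols and drugs, gave 2617, 2233 and 2605 in old HSC, against 332, 369 and 317 in young HSC (log2 change 2.81, SE 0.11, adjusted p 1.1e-05). Aldh1a1 (chromosome 19), which oxidises retinaldehyde and other aldehydes, gave 5909, 5427 and 5751 in old HSC, against 1521, 1859 and 1758 in young HSC (log2 change 1.73, SE 0.109, adjusted p 0.000123). For each of these the old arrays lay within a narrow band far above the young ones. Mt1 (chromosome 8), a metallothionein that binds zinc and copper, gave 738, 413 and 433 in old HSC, against 72.8, 69.6 and 58.7 in young HSC (log2 change 2.67, SE 0.212, adjusted p 0.000427), and its neighbour Mt2 had a log2 change of 1.98. Gstm2, a glutathione transferase, gave 93.8, 56.6 and 60.5 in old HSC, against 10.1, 12.02 and 13.5 in young HSC and was at least 4.02-fold higher (adjusted p 0.00132). The antioxidant and detoxification list split: 7 of 29 tested members were higher (24.1%, against 5.2% of all genes) and 2 lower (6.9%, against 2.93%), with a median of 0.01. The lower ones were Mgst1 (-1.21), a microsomal glutathione transferase, and Gpx1 (-0.47), the main glutathione peroxidase of the cytosol. Mgst1 (-1.38 to -0.9) was not called without young replicate 1, 2 or 3. Gpx1 (-0.55 to -0.42) was not called without replicate 2 or 3 of old HSC or replicate 1, 2 or 3 of young HSC.

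Nuclear and signalling genes were also among the largest rises. Eya4 (chromosome 10), a transcriptional coactivator with phosphatase activity, gave 391, 523 and 486 in old HSC, against 15.8, 13.4 and 17.1 in young HSC (log2 change 3.93, SE 0.127, adjusted p 4.85e-06). Wwtr1 (chromosome 3), the Hippo pathway coactivator TAZ, gave 896, 886 and 940.1 in old HSC, against 82.8, 70.2 and 71.2 in young HSC (log2 change 3.35, SE 0.0991, adjusted p 3.3e-06). Tdrd9 (chromosome 12), an RNA helicase of the piRNA pathway known from mouse germ cells, gave 752, 789 and 512 in old HSC, against 43.3, 24.8 and 29.2 in young HSC (log2 change 3.85, SE 0.198, adjusted p 5.88e-05). Every old array of these 3 lay far above the young ones. Eya4 was at background on young replicates 1 and 2, and with 1 or 64 added to the intensities in place of 16 its log2 change was 4.82 or 2.73. Nupr1 (chromosome 7), a stress-induced chromatin protein, gave 544, 466 and 559 in old HSC, against 52.8, 44.6 and 67.6 in young HSC (log2 change 2.93, SE 0.141, adjusted p 4.25e-05). Plscr2 (chromosome 9), a phospholipid scramblase, gave 691, 622 and 668 in old HSC, against 35.5, 45.2 and 29.5 in young HSC (log2 change 3.69, SE 0.127, adjusted p 5.59e-06). Clu (chromosome 14) gave 1557, 1112 and 1364 in old HSC, against 138, 189.7 and 204 in young HSC (log2 change 2.82, SE 0.172, adjusted p 0.000122), and all 3 of its other tested probe sets were called higher as well. Further large rises were Clca3a1 (3.27), a regulator of chloride conductance, Clec1a (2.86), a lectin receptor, and Zg16 (2.86), a secreted lectin.

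**Figure D3:**
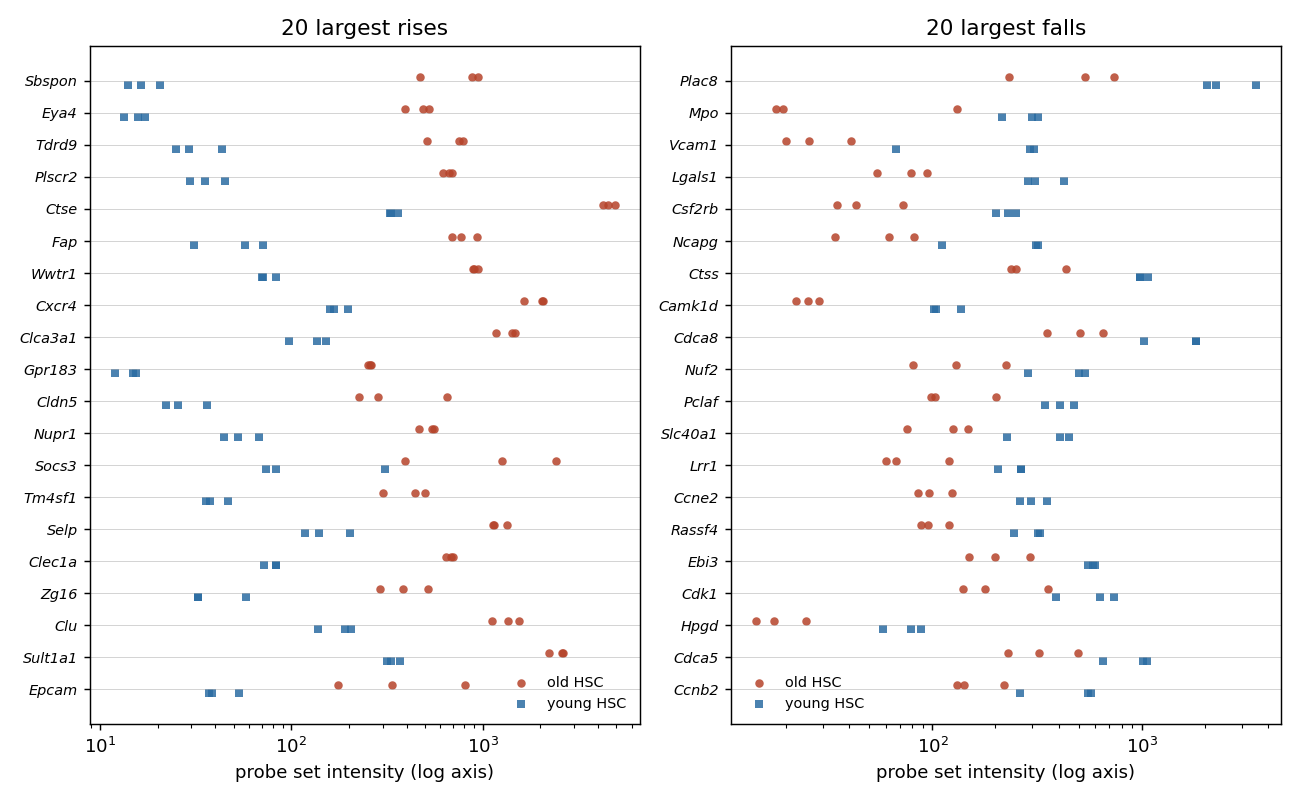
Intensity on each array (log axis) of the 20 genes with the largest rises and the 20 with the largest falls. They were taken among genes past the threshold whose groups do not overlap, leaving out provisional symbols. Circles are old HSC and squares young HSC. Rises such as Ctse and Wwtr1 are tight within a group, and in falls such as Vcam1 and Ncapg young replicate 1 lies below the other young arrays.

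The list of genes already known to rise in aged HSC was not independent of these arrays, since it was, like the other lists, written with results of them known. Of its 42 tested members 39 were higher and none was lower (median 2.15), and those not called were Jun, Egr1 and Niban1. Jun and Egr1 are immediate early genes, and Egr1 gave 14402, 2686 and 1681 in old HSC, against 5201, 864 and 916 in young HSC. On the mean of the list, old arrays were at 9.80, 9.62 and 9.51 and young arrays at 7.53, 7.44 and 7.54 on the log2 scale.

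Genes that mark the HSC state itself mostly had positive changes. Of 23 tested HSC identity genes 7 were higher (30.4%, against 5.2% of all genes) and none lower, and 21 had a positive log2 change (median 0.38, against -0.005 over all genes). Slamf1, the CD150 surface receptor by which HSC are sorted, gave 718, 642 and 638 in old HSC, against 315, 298 and 315 in young HSC (log2 change 1.07, SE 0.0963, adjusted p 0.000783). Procr, the endothelial protein C receptor, gave 2722, 2515 and 2413 in old HSC, against 1554, 1479.6 and 1401 in young HSC (log2 change 0.78, SE 0.0985, adjusted p 0.00323). Hoxb5, a homeobox factor found in long-term HSC, gave 334, 241 and 256 in old HSC, against 108, 130.5 and 142 in young HSC (log2 change 1.03, SE 0.15, adjusted p 0.00627). All 3 were higher on each old array than on any young array. Fgd5, a guanine nucleotide exchange factor used as an HSC reporter, had a log2 change of 0.56 and lost its call without young replicate 3 only (0.52 to 0.59 over the 6 fits). The other higher members were the chromatin reader Mllt3 (0.92), the ETS factor Fli1 (0.48) and Esam (0.42). The higher members numbered 6, 4 and 5 without old replicates 1, 2 and 3, and 5, 5 and 4 without young replicates 1, 2 and 3. Core stem cell factors did not pass, with log2 changes of -0.07 for Hoxa9, -0.01 for Tal1, 0.16 for Gata2 and 0.31 for Mecom. In sorted bulk samples, fewer cells of a type and less RNA per cell cannot be told apart. Mllt3 (0.76 to 1.02) was not called without old replicate 2. Fli1 (0.41 to 0.57) was not called without replicate 2 or 3 of old HSC or replicate 1, 2 or 3 of young HSC.

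Among the markers by which HSC subsets are sorted, Cd34 and Cd48 were lower in old HSC. Cd34, which marks progenitors and short-term HSC in the adult mouse, gave 882, 559 and 768 in old HSC, against 1917, 1223 and 1241 in young HSC (log2 change -0.96, SE 0.219, adjusted p 0.0354). It lost its call in all leave-one-out fits except the one without old replicate 1, with changes of -1.1 to -0.75. Cd48 gave 12.1, 10.8 and 13.03 in old HSC, against 32.97, 21.6 and 30.3 in young HSC, and was at least 1.65-fold lower in old HSC (adjusted p 0.0169). Its call was lost without replicate 1 or 2 of old HSC or replicate 3 of young HSC (-0.77 to -0.58). Alcam, an adhesion molecule of the immunoglobulin family, was higher (736, 601 and 696 in old HSC, against 231, 302 and 305 in young HSC, adjusted p 0.00175), with 3 of its 4 other probe sets called the same way. Of 14 tested markers 4 were higher (28.6%, against 5.2% of all genes) and 2 lower (14.3%, against 2.93%), with a median of 0.14.

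Platelet and megakaryocyte genes rose in part. Of 21 tested members 8 were higher (38.1%, against 5.2% of all genes) and none lower, yet the median was only 0.19. Vwf, the von Willebrand factor, gave 3103, 3406 and 2159 in old HSC, against 434, 751 and 954 in young HSC (log2 change 2.04, adjusted p 0.00531). Plek (chromosome 11), the platelet protein pleckstrin, gave 1539.7, 1039 and 1294 in old HSC, against 464, 364 and 457 in young HSC (log2 change 1.55, SE 0.163, adjusted p 0.00149). Clec1b, the podoplanin receptor CLEC-2 of platelets, gave 49.4, 39.6 and 47.97 in old HSC, against 17.01, 16.9 and 17.7 in young HSC (log2 change 0.89, SE 0.101, adjusted p 0.00192). Old and young arrays were apart for each of these, though Clec1b was dim in both groups. Mmrn1 (0.92), Gp1bb (0.69) and the secretory GTPase Rab27b (0.69) were the remaining higher members beside Selp and Itgb3. Gp1bb (0.59 to 0.8) was not called without replicate 1 or 2 of old HSC or replicate 2 or 3 of young HSC. Rab27b (0.52 to 0.79) was called in no fit with 1 array left out.

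Genes of DNA replication fell together. Of 33 tested members of the replication and G1 to S list 22 were lower (66.7%, against 2.93% of all genes) and none higher, and every one had a negative log2 change (median -0.74). Ccne2 (chromosome 4), cyclin E2, which drives entry into S phase, gave 96.7, 85.5 and 125 in old HSC, against 263, 353 and 295 in young HSC (log2 change -1.44, SE 0.155, adjusted p 0.00166). Cdc6 (chromosome 11), which loads the replicative helicase, gave 262, 226 and 279.9 in old HSC, against 607, 556 and 542 in young HSC (log2 change -1.11, SE 0.111, adjusted p 0.00128). Mcm5 (chromosome 8), a subunit of that helicase, gave 1418, 1180.2 and 1444 in old HSC, against 2640.3, 2789.6 and 2637 in young HSC (log2 change -0.99, SE 0.11, adjusted p 0.00176), and Mcm3 gave 559.8, 526 and 627 in old HSC, against 943, 939 and 967 in young HSC (log2 change -0.72, SE 0.101, adjusted p 0.0052). In all 4 every old array lay below every young array. The helicase subunits Mcm2 to Mcm7 were all lower, as were the nucleotide reductase genes Rrm1 (-0.8) and Rrm2 (-1.16), the primase gene Prim1 (-1.16) and the sliding clamp gene Pcna (-0.57). The mean level of the list was 8.62, 8.45 and 8.84 in old HSC, against 9.33, 9.5 and 9.43 in young HSC. The lower genes numbered 14, 16 and 21 without old replicates 1, 2 and 3, and 22, 10 and 13 without young replicates 1, 2 and 3, with medians of -0.68 to -0.91. Rrm1 (-0.94 to -0.69) and Rrm2 (-1.42 to -0.94) were not called without replicate 1 of old HSC or replicate 2 or 3 of young HSC. Prim1 (-1.33 to -0.95) was not called without young replicate 2. Pcna (-0.65 to -0.5) was not called without replicate 1 or 2 of old HSC or replicate 2 or 3 of young HSC.

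Genes of mitosis showed a wider change with a less even spread. All 35 tested members had a negative log2 change (median -1.13), but 9 were called lower (25.7%, against 2.93% of all genes). Cdca8 (chromosome 4), borealin of the chromosomal passenger complex, gave 352, 505 and 653 in old HSC, against 1027, 1806 and 1814 in young HSC (log2 change -1.59, SE 0.275, adjusted p 0.0129). Ttk (chromosome 9), the spindle checkpoint kinase, gave 43.5, 66.3 and 81.9 in old HSC, against 118, 189.8 and 188 in young HSC (log2 change -1.18, SE 0.227, adjusted p 0.0188). Ccnb2 (chromosome 9), cyclin B2, gave 131, 141 and 220.1 in old HSC, against 263, 555 and 569 in young HSC (log2 change -1.36, SE 0.304, adjusted p 0.0337). In each of them young replicate 1 stood well below young replicates 2 and 3, and old replicate 3 was the brightest old array. The mean level of the list was 6.94, 7.4 and 7.84 in old HSC, against 7.82, 8.83 and 8.96 in young HSC, so that young replicate 1 lay below old replicate 3. Without young replicate 1, 32 of the 35 genes were called lower (median -1.57), and without old replicate 3, 10 were. Without old replicate 1 or old replicate 2, 2 were called, and without young replicate 2 or young replicate 3 none was, with medians of -0.90 to -1.17. Nuf2 (-1.56), a kinetochore protein, the mitotic kinase Cdk1 (-1.38), Cdca5 (-1.38), or sororin, which protects sister chromatid cohesion, and Birc5 (-1.09), or survivin, were each called in 2 of the 6 such fits. Ncapg (-1.73), a condensin subunit outside the list, was called in 1. Of 21 centromere proteins 6 were lower (28.6%) and none higher (median -0.49), led by Cenpk (153, 163 and 213 in old HSC, against 318, 509 and 505 in young HSC, adjusted p 0.00939). Cenps (-1.0), Cenpm (-0.69) and Cenph (-0.63) were also lower. Lower centromere genes numbered 2, 2 and 6 without old replicates 1, 2 and 3, and 10, 2 and 2 without young replicates 1, 2 and 3. Cdca8 (-1.86 to -1.36) and Ttk (-1.39 to -0.98) were not called without young replicate 2 or 3. Ccnb2 (-1.72 to -1.18), Nuf2 (-1.9 to -1.24), Cdk1 (-1.75 to -1.12), Cdca5 (-1.65 to -1.12), Birc5 (-1.31 to -0.93) and Cenph (-0.75 to -0.52) were not called without replicate 1 or 2 of old HSC or replicate 2 or 3 of young HSC. Ncapg (-2.19 to -1.47) was not called without replicate 1, 2 or 3 of old HSC or replicate 2 or 3 of young HSC. Cenpm (-0.85 to -0.56) was not called without replicate 1 or 2 of old HSC or replicate 1, 2 or 3 of young HSC.

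The promoters of 5 of these cell cycle genes, each lower in old HSC, are shown. The replication and mitosis lists hold lower genes and no higher ones. Only lower members whose promoter holds the letters marked below were eligible, and those with the smallest adjusted p were taken. The presence of these letters was therefore fixed by the choice. The sequences come from RefSeq (GRCm38.p6) and run 5' to 3' on the strand of the gene from 250 bases before its start to 50 after. Capitals mark CCAAT, the CCAAT box, and TTTGAA, the cell cycle homology element, in either strand for the mitotic genes Cdca8 (chr4:124936868-124937167, minus strand), Ttk (chr9:83834439-83834738, plus strand) and Ccnb2 (chr9:70421505-70421804, minus strand). They mark GGCGGGAA, an E2F site, in either strand for the replication genes Mcm3 (chr1:20820263-20820562, minus strand) and Uhrf1 (chr17:56303087-56303386, plus strand). In Cdca8 the TTTGAA and the last ATTGG overlap.
Cdca8: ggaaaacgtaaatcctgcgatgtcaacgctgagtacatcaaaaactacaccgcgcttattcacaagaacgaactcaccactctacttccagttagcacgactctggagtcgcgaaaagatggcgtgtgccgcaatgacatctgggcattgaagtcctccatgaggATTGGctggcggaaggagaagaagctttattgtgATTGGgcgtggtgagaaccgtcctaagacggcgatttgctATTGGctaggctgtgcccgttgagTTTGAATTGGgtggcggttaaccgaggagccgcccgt
Ttk: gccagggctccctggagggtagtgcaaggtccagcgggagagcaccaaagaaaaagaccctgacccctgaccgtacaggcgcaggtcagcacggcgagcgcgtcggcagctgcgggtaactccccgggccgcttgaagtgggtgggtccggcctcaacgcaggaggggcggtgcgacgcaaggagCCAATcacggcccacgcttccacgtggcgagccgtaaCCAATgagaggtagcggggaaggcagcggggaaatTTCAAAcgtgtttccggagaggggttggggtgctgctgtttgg
Ccnb2: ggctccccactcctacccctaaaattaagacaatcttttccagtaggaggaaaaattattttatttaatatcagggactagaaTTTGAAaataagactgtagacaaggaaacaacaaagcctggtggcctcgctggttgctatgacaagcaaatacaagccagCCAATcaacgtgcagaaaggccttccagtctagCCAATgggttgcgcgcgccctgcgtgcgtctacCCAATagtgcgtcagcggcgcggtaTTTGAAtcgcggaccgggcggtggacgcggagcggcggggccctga
Mcm3: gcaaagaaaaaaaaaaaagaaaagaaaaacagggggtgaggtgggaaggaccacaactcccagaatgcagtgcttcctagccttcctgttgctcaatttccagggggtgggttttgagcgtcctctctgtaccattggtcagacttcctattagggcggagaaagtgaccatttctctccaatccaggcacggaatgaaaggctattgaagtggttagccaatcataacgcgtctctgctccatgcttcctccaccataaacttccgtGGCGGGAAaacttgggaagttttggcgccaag
Uhrf1: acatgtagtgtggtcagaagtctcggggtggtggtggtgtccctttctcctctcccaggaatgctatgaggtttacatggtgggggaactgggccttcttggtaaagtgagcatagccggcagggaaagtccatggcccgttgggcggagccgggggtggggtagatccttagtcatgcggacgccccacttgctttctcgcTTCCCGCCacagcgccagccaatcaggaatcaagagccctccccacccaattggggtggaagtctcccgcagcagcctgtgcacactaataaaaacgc

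Shares of promoters that hold these letters differed between the lists. TTTGAA was in 80.6% of 31 mitosis promoters, 17.9% of 28 replication promoters, 16.4% of the 304 promoters found for genes lower in old HSC and 11.8% of 10485 promoters of genes tested (18.1% of all 27025 in the table). CCAAT was in 74.2% of the mitosis, 60.7% of the replication, 48.7% of the lower, 38.0% of the tested and 37.9% of all promoters. GGCGGGAA was in none of the mitosis, 17.9% of the replication, 8.22% of the lower, 4.0% of the tested and 2.24% of all promoters. Genes higher in old HSC (535 promoters) held TTTGAA in 11.4%, CCAAT in 34.8% and GGCGGGAA in 1.87%. These shares describe letters in a window of 300 bases and were not tested.

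Some DNA repair genes were lower as well. Of 26 DNA repair genes 6 were lower (23.1%, against 2.93% of all genes) and none higher (median -0.3). Chek1 (chromosome 9), the checkpoint kinase of stalled forks, gave 397, 363 and 450.0 in old HSC, against 973, 927 and 929.6 in young HSC (log2 change -1.2, SE 0.107, adjusted p 0.000759). Exo1 (chromosome 1), an exonuclease of mismatch repair and end resection, gave 73.8, 57.00 and 77.3 in old HSC, against 145, 176 and 178 in young HSC (log2 change -1.1, SE 0.132, adjusted p 0.00259). Both were lower on each old array and were called with any 1 array left out. Rad51ap1 (-1.18), Brca1 (-1.04), Rad54l (-0.96) and Msh6 (-0.47) completed the lower members, which numbered 3, 2 and 5 without old replicates 1, 2 and 3, and 9, 2 and 2 without young replicates 1, 2 and 3. Pclaf (-1.55), a partner of the sliding clamp, and Lrr1 (-1.45), which helps unload the replicative helicase, were among the 20 largest falls. Rad51ap1 (-1.39 to -1.02) and Brca1 (-1.25 to -0.91) were not called without replicate 1 or 2 of old HSC or replicate 2 or 3 of young HSC. Rad54l (-1.18 to -0.82) was not called without replicate 2 of old HSC or replicate 2 or 3 of young HSC. Msh6 (-0.51 to -0.41) was not called without replicate 1, 2 or 3 of old HSC or replicate 2 or 3 of young HSC.

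Chromatin genes were mixed. Of 30 tested genes of DNA methylation and Polycomb 5 were lower (16.7%, against 2.93% of all genes) and 1 higher (3.33%, against 5.2%), with a median of -0.06. The maintenance methyltransferase gene Dnmt1 gave 985, 937 and 1012 in old HSC, against 1512, 1960.3 and 1948 in young HSC (log2 change -0.87, SE 0.125, adjusted p 0.0059), and Uhrf1, which guides Dnmt1 to newly copied DNA, gave 506, 328 and 469 in old HSC, against 928, 1097 and 877 in young HSC (log2 change -1.14, SE 0.171, adjusted p 0.00698). Dnmt3b, a methyltransferase of unmethylated DNA, gave 499, 616 and 525 in old HSC, against 1074, 1053 and 1079 in young HSC (log2 change -0.95, SE 0.107, adjusted p 0.00188). Old and young arrays were apart for all 3, and each call held with any array left out. The 2 Polycomb methyltransferases moved in opposite directions: Ezh1 gave 1008, 1343 and 969.9 in old HSC, against 462, 472 and 481 in young HSC (log2 change 1.19, SE 0.136, adjusted p 0.00194), while Ezh2 had a log2 change of -0.93 (adjusted p 0.00973). Ezh2 is tied to dividing cells and Ezh1 to resting ones in the mouse. Their partner Eed was lower as well (-0.52). Eed (-0.55 to -0.48) was not called without replicate 1 of old HSC or replicate 2 or 3 of young HSC.

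Of 21 tested CDK inhibitors, D cyclins and quiescence factors 5 were modestly higher (23.8%, against 5.2% of all genes) and none lower (median 0.4). They were Txnip (0.67), an inhibitor of thioredoxin, Ccnd1 (0.64), cyclin D1, Rb1 (0.57), the retinoblastoma repressor, Ndn (0.5), or necdin, and Foxo1 (0.47), a forkhead factor. Rb1 gave 369, 419 and 341 in old HSC, against 242, 251 and 246 in young HSC, with no overlap between the groups. None of the 5 stayed called without young replicate 2 or without young replicate 3. Immediate early genes, of which only Socs3 passed among 23 (4.35%, against 5.2% of all genes), had a median of 0.48 that turned to -0.10 without old replicate 1. Socs3, an inhibitor of cytokine signalling, gave 2431, 392 and 1265 in old HSC, against 309.8, 82.8 and 73.8 in young HSC (log2 change 2.93, SE 0.689, adjusted p 0.0399), and was not called without replicate 1 or 3 of old HSC or replicate 2 or 3 of young HSC (2.34 to 3.64). Txnip (0.52 to 0.82) was not called without replicate 1 or 2 of old HSC or replicate 1, 2 or 3 of young HSC. Ccnd1 (0.57 to 0.73) was not called without replicate 1 or 2 of old HSC or replicate 2 or 3 of young HSC. Rb1 (0.5 to 0.64) was not called without young replicate 2 or 3. Ndn (0.43 to 0.57) was not called without replicate 1, 2 or 3 of old HSC or replicate 2 or 3 of young HSC. Foxo1 (0.43 to 0.53) was not called without replicate 2 or 3 of old HSC or replicate 2 or 3 of young HSC.

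Part of the myeloid progenitor genes fell, as did some markers of mature cells that a sort could carry along. Of 18 tested myeloid progenitor genes 7 were lower (38.9%, against 2.93% of all genes) and 1 higher (5.56%, against 5.2%), with a median of -0.44. Plac8 (chromosome 5), a small cysteine-rich protein of myeloid progenitors, gave 533, 233 and 738 in old HSC, against 3493, 2041 and 2272 in young HSC (log2 change -2.44, SE 0.386, adjusted p 0.00848). Csf2rb gave 42.97, 34.8 and 72.6 in old HSC, against 201, 251 and 229 in young HSC (log2 change -1.91, SE 0.201, adjusted p 0.00148). Mpo (chromosome 11), the peroxidase of granulocyte precursors, gave 131, 17.9 and 19.4 in old HSC, against 216, 299 and 319 in young HSC (log2 change -2.37, SE 0.514, adjusted p 0.0299). Mpo was near background on old replicates 2 and 3 only, and it was not called without replicate 2 or 3 of old HSC or replicate 2 or 3 of young HSC (-3.07 to -2.01). Against this, Prtn3, proteinase 3 of the same granules, was higher: it gave 2856, 2860.4 and 3319 in old HSC, against 1397, 1063 and 1147 in young HSC (log2 change 1.32, SE 0.13, adjusted p 0.00113). Ms4a3, a membrane protein of granulocyte progenitors, was lower too (-0.56). The lower members numbered 6, 2 and 2 without old replicates 1, 2 and 3, and 6, 2 and 2 without young replicates 1, 2 and 3. Ms4a3 (-0.62 to -0.5) was not called without replicate 2 or 3 of old HSC or replicate 2 or 3 of young HSC.

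Markers of other cells stood beside these falls. Of 12 tested macrophage markers 7 were lower (58.3%, against 2.93% of all genes) and none higher. Summed over the 15 on the arrays, intensities were 1414, 1183 and 1365 in old HSC, against 2381, 2977 and 3211 in young HSC. The lower macrophage markers numbered 3, 2 and 1 without old replicates 1, 2 and 3, and 7, 1 and 1 without young replicates 1, 2 and 3. Ctss (chromosome 3), the lysosomal protease cathepsin S, gave 238, 249 and 436 in old HSC, against 978, 979 and 1071 in young HSC (log2 change -1.71, SE 0.211, adjusted p 0.00286). Among the defining markers, C1qa, a complement subunit, gave 14.2, 15.98 and 15.8 in old HSC, against 27.5, 28.4 and 43.5 in young HSC, and was at least 1.92-fold lower in old HSC (adjusted p 0.0288), while Adgre1, the F4/80 antigen, gave 31.9, 28.1 and 27.9 in old HSC, against 42.9, 50.1 and 52.5 in young HSC (adjusted p 0.0229). All of these were lowest on the old arrays. Vcam1, a ligand for integrins on stroma and macrophages, gave 20.03, 25.9 and 40.9 in old HSC, against 66.7, 292 and 307 in young HSC (log2 change -2.19, adjusted p 0.0326, -2.84 to -1.85 with 1 array left out and called only without young replicate 1). Of 9 tested neutrophil markers none passed in limma (5 were lower at an unadjusted p under 0.05), although all had a negative log2 change (median -1.38). The lower ones numbered 4, 0 and 0 without old replicates 1, 2 and 3, and 2, 0 and 0 without young replicates 1, 2 and 3, and the median ran from -2.2 to -0.68. S100a8, a calcium-binding protein of neutrophil cytosol, gave 322, 41.9 and 24.1 in old HSC, against 508, 1939.5 and 567 in young HSC (adjusted p 0.0516), and its partner S100a9 had a log2 change of -2.35 (adjusted p 0.0761). Summed over the 11 neutrophil markers on the arrays, intensities were 1491, 202 and 232 in old HSC, against 1176, 5629.8 and 1767 in young HSC. Young replicate 2 lay far above the rest, and old replicate 1 lay above young replicate 1. The stromal chemokine Cxcl12 was at 153 and 205 in young replicates 2 and 3, and at 16.9 to 25.9 on the other 4 arrays. The part of such cells in the myeloid falls was not tested. C1qa (-0.71 to -0.49) was not called without replicate 1, 2 or 3 of old HSC or replicate 2 or 3 of young HSC. Adgre1 (-0.57 to -0.46) was not called without replicate 2 or 3 of old HSC or replicate 2 or 3 of young HSC.

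Single lymphoid and erythroid genes passed in both directions. Of 14 tested lymphoid-primed genes 2 were higher (14.3%, against 5.2% of all genes) and 1 lower (7.14%, against 2.93%), with a median of -0.06. The higher ones numbered 1, 1 and 1 without old replicates 1, 2 and 3, and 1, 1 and 1 without young replicates 1, 2 and 3. Id2, an inhibitor of helix-loop-helix factors, gave 549.9, 368 and 422 in old HSC, against 143, 151 and 141 in young HSC (log2 change 1.5, SE 0.146, adjusted p 0.00109), the transcription factor Bcl11a gave 1647, 1625 and 1543 in old HSC, against 1202, 1199 and 1275 in young HSC (adjusted p 0.0404), and the chromatin organiser Satb1 gave 52.2, 37.9 and 52.7 in old HSC, against 142, 77.5 and 85.1 in young HSC (adjusted p 0.0426). Satb1 was called only without young replicate 1 among the fits with 1 array left out (-1.0 to -0.62). Of 17 erythroid genes 3 were lower (17.6%, against 2.93% of all genes) and 1, again Bcl11a, higher (5.88%, against 5.2%), with a median of -0.24. The lower ones were the factors Gata1 (138, 55.4 and 151 in old HSC, against 268, 258 and 265 in young HSC, adjusted p 0.0454) and Klf1 (51.1, 33.5 and 43.6 in old HSC, against 74.4, 119 and 105 in young HSC, adjusted p 0.0155), and the carbonic anhydrase gene Car1 (-0.84). The lower erythroid genes numbered 1, 2 and 2 without old replicates 1, 2 and 3, and 3, 0 and 0 without young replicates 1, 2 and 3. B cell markers were dim, with summed intensities of 523, 469.8 and 492 in old HSC, against 638, 582 and 583 in young HSC over the 14 on the arrays. T and NK markers gave 550.3, 314 and 392 in old HSC, against 528, 437 and 419 in young HSC over the 14 on the arrays. None of the 10 tested T and NK markers passed in limma (1 above and 1 below young HSC at an unadjusted p under 0.05), with changes of -0.36 for Thy1 (adjusted p 0.128) and 0.31 for Cd247 (adjusted p 0.14). Of 7 mast cell and basophil markers none passed either (1 below young HSC at an unadjusted p under 0.05), with -0.38 for Cpa3 (adjusted p 0.0622) and -0.29 for Il4 (adjusted p 0.288). Of 10 tested B lineage markers 8 had a negative log2 change (median -0.12). Bank1 (-0.84) and Cd37 (-0.65) were lower and none was higher, so the share of lower markers was above the 2.93% of all genes. The defining marker Cd79b gave 90.00, 70.6 and 65.03 in old HSC, against 92.9, 78.1 and 85.9 in young HSC (adjusted p 0.528). Of the defining markers Hba-a1, Alas2, Cd3g, Fcer1a, Col1a1 and Cdh5 did not pass the filter on dim genes. Bcl11a (0.37 to 0.41) and Cd37 (-0.73 to -0.52) were called in no fit with 1 array left out. Gata1 (-1.42 to -0.8) was not called without replicate 1 of old HSC or replicate 1, 2 or 3 of young HSC. Klf1 (-1.14 to -0.84) was not called without young replicate 2 or 3. Car1 (-0.99 to -0.64) was not called without replicate 1, 2 or 3 of old HSC or replicate 2 or 3 of young HSC. Bank1 (-0.96 to -0.64) was not called without replicate 1 or 2 of old HSC or replicate 1, 2 or 3 of young HSC.

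Developmental signalling genes rose more often than they fell. Of 36 tested genes of the Wnt, Notch, TGF-beta and Hippo pathways 7 were higher (19.4%, against 5.2% of all genes) and none lower (median 0.29). Sfrp1 (chromosome 8), a secreted modulator of Wnt signals, gave 495, 589 and 553 in old HSC, against 150.0, 154 and 168 in young HSC (log2 change 1.69, SE 0.106, adjusted p 0.000123). Lats1, the kinase that restrains Wwtr1, gave 752, 698 and 729.7 in old HSC, against 475, 539 and 485 in young HSC (log2 change 0.53, SE 0.0972, adjusted p 0.0164). Both were higher on each old array, although Lats1 was not called without replicate 1 or 3 of old HSC or replicate 3 of young HSC (0.49 to 0.58). Jag1 (0.71), a Notch ligand, Fzd8 (0.57), a Wnt receptor, and Smad1 (0.46), an effector of Bmpr1a, were the remaining higher members beside Wwtr1 and Id2. Without old replicate 1 or old replicate 3, 3 of the 7 were called, and 4 without young replicate 2 or 3. Jag1 (0.59 to 0.89) was not called without replicate 1, 2 or 3 of old HSC or replicate 1 or 2 of young HSC. Fzd8 (0.47 to 0.68) and Smad1 (0.4 to 0.52) were not called without replicate 1 or 3 of old HSC or replicate 2 or 3 of young HSC.

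Of 17 p53 targets 14 had a positive log2 change (median 0.3) and 2 were higher (11.8%, against 5.2% of all genes), Plk2 (1001, 975 and 531 in old HSC, against 217, 82.9 and 105 in young HSC, adjusted p 0.00482), a polo-like kinase, and Perp (499, 288 and 379 in old HSC, against 151, 107 and 116 in young HSC, adjusted p 0.0044), a membrane protein of desmosomes. The 1 other tested probe set of Plk2 had the opposite sign and was not called. The higher p53 targets numbered 3, 2 and 4 without old replicates 1, 2 and 3, and 2, 2 and 2 without young replicates 1, 2 and 3. No member of the 21 interferon response genes passed in limma (median -0.02), nor of the 15 MHC genes (median 0.14) or the 14 Bcl2 family genes (median -0.07). At an unadjusted p under 0.05, 1 interferon gene was above and 1 below young HSC, 2 MHC genes were above and 3 below, and 3 Bcl2 family genes were above. Stat2, part of the interferon signalling complex, gave 62.8, 68.1 and 61.3 in old HSC, against 42.9, 45.9 and 52.7 in young HSC (adjusted p 0.0849), and Bcl2 gave 508, 559 and 582 in old HSC, against 313, 395 and 476 in young HSC (adjusted p 0.103). The arrays of both did not overlap, as for 14.8% of all genes with old HSC above. Usp18, which removes the interferon-induced tag ISG15, gave 143, 233 and 249.8 in old HSC, against 348, 255 and 286 in young HSC (adjusted p 0.194), apart in the other direction. Bcl2l2, a survival gene, had a change of 0.64 (adjusted p 0.0965), and the immunoproteasome genes Psmb8 and Psmb9 of the MHC list had -0.38 (adjusted p 0.0596) and -0.44 (adjusted p 0.0708). Of 20 inflammation and NF-kB genes 15 had a positive change (median 0.16). Tnfaip2 (0.96) and Bcl3 (0.88) were higher and none was lower, so the share of higher genes was above the 5.2% of all genes. The higher ones numbered 1, 2 and 2 without old replicates 1, 2 and 3, and 3, 1 and 1 without young replicates 1, 2 and 3. Of the 2 other tested probe sets of Tnfaip2, 1 was called higher as well and the other had the opposite sign. Of 24 chaperone and unfolded protein genes Trib3 (0.82) and Asns (0.5), both targets of the amino acid response, were higher (8.33%, against 5.2% of all genes). The heat shock protein gene Hsph1 (-0.72) was lower (4.17%, against 2.93%). Bcl3 (0.69 to 1.06) was not called without replicate 1 of old HSC or replicate 2 or 3 of young HSC. Asns (0.42 to 0.55) was called in no fit with 1 array left out. Hsph1 (-0.86 to -0.59) was not called without replicate 1 or 3 of old HSC or replicate 1 or 2 of young HSC.

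Energy metabolism showed small differences. Of 86 nuclear genes of the respiratory chain 84 had a negative log2 change, with a median of -0.3. Yet 5 were lower (5.81%, against 2.93% of all genes) and 1 higher (1.16%, against 5.2%). Sdhb, a subunit of complex II, gave 674, 594 and 617 in old HSC, against 886, 889 and 902 in young HSC (log2 change -0.5, SE 0.0944, adjusted p 0.0182), whereas its partner Sdha was higher (0.41, adjusted p 0.0373). Cox6a1, a subunit of cytochrome oxidase, gave 2028, 1699 and 1999 in old HSC, against 2805, 2678 and 2762 in young HSC (log2 change -0.53, SE 0.105, adjusted p 0.0218). Ndufb8 (-0.6) and Ndufa1 (-0.62) of complex I were lower too. Of 76 mitochondrial ribosomal proteins 72 had a negative change (median -0.26), 8 were lower and none was higher. The share of lower genes in this family was above the 2.93% of all genes and the 5.81% of the respiratory genes. Mrps15 of the small subunit gave 519.9, 474 and 507 in old HSC, against 798, 702 and 734 in young HSC (log2 change -0.56, SE 0.0981, adjusted p 0.0139), and the lower genes of this family numbered 4, 1 and 4 without old replicates 1, 2 and 3, and 2, 1 and 0 without young replicates 1, 2 and 3. Mrpl47 (-0.46), Mrpl13 (-0.55) and Mrpl28 (-0.56) of the large subunit were lower as well. The mean log2 level of the respiratory genes was 9.61, 9.3 and 9.56 in old HSC, against 9.92, 9.71 and 9.72 in young HSC. That of the mitochondrial ribosomal proteins was 8.44, 8.14 and 8.34 in old HSC, against 8.74, 8.49 and 8.52 in young HSC. In both families old replicate 2 was the lowest array and young replicate 1 the highest. The old and young arrays were apart for 39 of these ribosomal genes, all lower in old HSC, and for 47 lower and 1 higher respiratory genes. Over all genes tested, 13.4% were apart with old HSC below and 14.8% with old HSC above. Proteasome subunits had a median of -0.23, with Psma7 (-0.42) as the 1 lower gene of 38 (2.63%, against 2.93% of all genes). Without young replicate 2 or 3 no respiratory or proteasome gene was called, and the medians of these 3 families lay between -0.17 and -0.35 over the fits with 1 array left out. Cytosolic ribosomal proteins had a median of 0.003 over 46 genes, and the only call was the copy Rps4l (25.7, 23.7 and 17.3 in old HSC, against 62.05, 78.5 and 78.02 in young HSC, adjusted p 0.00149). Genes that maintain mitochondrial DNA had none of 24 called in limma (median -0.04), with 3 above and 2 below young HSC at an unadjusted p under 0.05. Among them the nuclease gene Mgme1 had -0.51 (adjusted p 0.0521) and the thymidine kinase gene Tk2 0.44 (adjusted p 0.0958). Sdhb (-0.55 to -0.46) was not called without replicate 2 or 3 of old HSC or replicate 2 or 3 of young HSC. Sdha (0.38 to 0.46) and Psma7 (-0.45 to -0.38) were called in no fit with 1 array left out. Cox6a1 (-0.57 to -0.45) was not called without replicate 2 of old HSC or replicate 2 or 3 of young HSC. Ndufb8 (-0.68 to -0.46), Mrpl13 (-0.6 to -0.45) and Mrpl28 (-0.62 to -0.48) were not called without replicate 1 or 2 of old HSC or replicate 1, 2 or 3 of young HSC. Ndufa1 (-0.73 to -0.51) was not called without replicate 2 or 3 of old HSC or replicate 1, 2 or 3 of young HSC. Mrps15 (-0.6 to -0.51) was not called without young replicate 3. Mrpl47 (-0.48 to -0.44) was not called without replicate 1, 2 or 3 of old HSC or replicate 2 or 3 of young HSC. Its 1 other tested probe set had the opposite sign.

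Single metabolic genes changed more. Scd1 (chromosome 19), which makes monounsaturated fatty acids, gave 465, 361 and 311 in old HSC, against 72.9, 68.2 and 86.1 in young HSC (log2 change 2.09, SE 0.156, adjusted p 0.000289), and Fads2, a fatty acid desaturase, had a log2 change of 0.76, but the other 21 sterol and fatty acid genes did not pass. Epas1, the hypoxia factor HIF-2 alpha, gave 274, 184 and 262 in old HSC, against 50.4, 69.3 and 98.9 in young HSC (log2 change 1.54, SE 0.22, adjusted p 0.00565), and Hk2, hexokinase 2, gave 615, 629 and 681 in old HSC, against 433, 347 and 369.9 in young HSC (log2 change 0.72, SE 0.112, adjusted p 0.00781). These were the 2 higher genes of 22 in the glycolysis and hypoxia list (9.09%, against 5.2% of all genes, median 0.05). Beside Ctse, the lysosome and autophagy list had Gabarapl1 (0.67), which helps form autophagosomes, and the protease and membrane genes Ctsl (0.63) and Lamp2 (0.46) as higher members of 28, and Ctss as the lower one. The higher members are 14.3% and the lower 3.57% of this list, against 5.2% and 2.93% of all genes. The iron exporter Slc40a1, or ferroportin, gave 148, 126 and 75.7 in old HSC, against 227, 447 and 405 in young HSC (log2 change -1.49, SE 0.285, adjusted p 0.0185) and was not called without replicate 3 of old HSC or replicate 2 or 3 of young HSC (-1.78 to -1.25). The prostaglandin-degrading enzyme Hpgd gave 24.9, 14.4 and 17.6 in old HSC, against 58.1, 79.3 and 87.7 in young HSC (log2 change -1.38, SE 0.162, adjusted p 0.00227), the cytokine subunit Ebi3 gave 199, 293 and 150.0 in old HSC, against 587, 595 and 553 in young HSC (log2 change -1.42, SE 0.205, adjusted p 0.00607), and the galectin Lgals1 gave 93.7, 54.4 and 79.2 in old HSC, against 423, 285 and 308 in young HSC (log2 change -1.96, SE 0.198, adjusted p 0.00132). The last 3 were lower on every old array and with any array left out. Camk1d, a calmodulin-dependent kinase, gave 22.2, 28.7 and 25.4 in old HSC, against 104, 137 and 101 in young HSC (log2 change -1.64, SE 0.131, adjusted p 0.000427), and Rassf4, a Ras-association protein, gave 88.00, 119 and 94.7 in old HSC, against 246, 321 and 325 in young HSC (log2 change -1.42, SE 0.148, adjusted p 0.00141). Fads2 (0.61 to 0.85) was not called without replicate 1 or 2 of old HSC or replicate 2 of young HSC. Ctsl (0.59 to 0.7) was not called without young replicate 2, and its 1 other tested probe set had the opposite sign. Lamp2 (0.42 to 0.51) was not called without replicate 1 or 3 of old HSC or replicate 2 or 3 of young HSC.

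**Figure D4:**
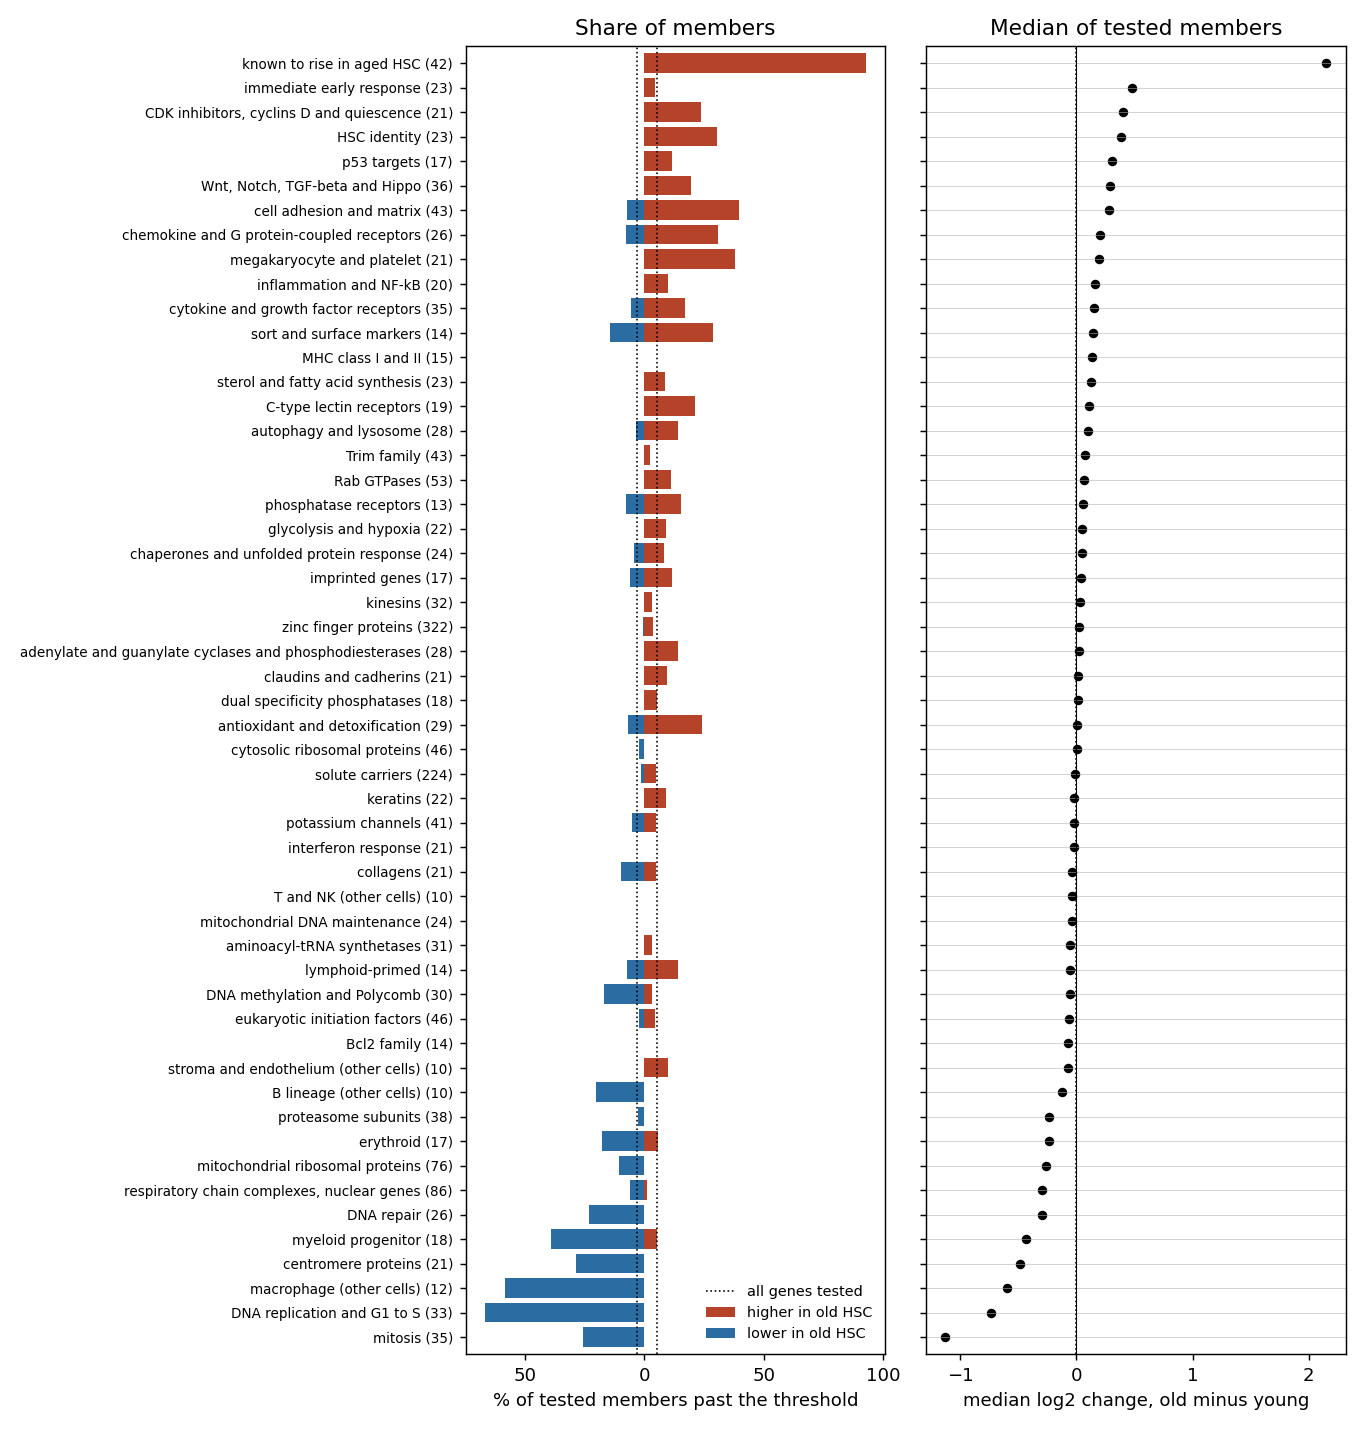
Left, share of the tested members of each gene list or family higher (red, to the right) or lower (blue, to the left) in old HSC. Dotted lines mark the shares over all genes tested (5.2% and 2.93%). Lists and families with fewer than 10 tested members are left out. Right, median log2 change of the tested members, old minus young. All lists and families, with the list known to rise in aged HSC among them, were chosen with earlier results of these data known. The called genes of the replication (22 of 33) and mitosis (9 of 35) lists are lower ones only.

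The 32-week wild-type HSC give an age between the groups, although their RNA controls differ. Their actin 3' over 5' ratios were 4.90, 4.24 and 5.26, above every young and old array, and Xist was at 9.12 in their replicate 3, which is labelled female. By age, Ctse averaged 339.9 ± 17.7 in young HSC, 4565 ± 1470 at 32 weeks and 4560.0 ± 317 in old HSC (SD, n = 3 each). Cxcr4 averaged 175 ± 20.6 in young HSC, 1125 ± 531 at 32 weeks and 1917 ± 229 in old HSC. Sult1a1 averaged 339.5 ± 26.6 in young HSC, 840.1 ± 104 at 32 weeks and 2485 ± 218 in old HSC. Sbspon was at 23.3, 93.3 and 114, Tm4sf1 at 36.5, 59.9 and 36.5 and Clec1a at 61.9, 105 and 83.2 on the 32-week arrays. The 32-week Ctse values, 2871, 5538 and 5287, all lay above the young ones and on both sides of the old ones, and those of Tm4sf1 and Clec1a lay among or near the young values. These levels were not tested.

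The other probe sets of a gene mostly had the same sign. Of the higher genes 337 had other tested probe sets, and for 263 of these all others had the same sign. Of the lower genes this held for 181 of 207. Another probe set was called the same way for 127 of the 337 higher and 66 of the 207 lower genes. Plekha5 and Dnajb6, singled out after their values were seen, each had probe sets called in opposite directions. In Dnajb6, a chaperone of the J-domain class, 1 probe set changed by -0.69 and another by 1.15. Calls were spread over the level range: among the lowest 25% of genes by mean level 2.77% were higher and 0.799% lower, and among the highest 25% 6.52% were higher and 4.0% lower. By chromosome the share of genes called ranged from 5.15% on chromosome 7 to 11.7% on chromosome 13.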

How the data were processed

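Expression was measured on Affymetrix mouse expression arrays. The deposited values are intensities on a linear scale, 1 per probe set, and how the authors summarised and normalised them is not given in the sources used here. Of 45101 probe sets, 34945 have 1 gene in the platform annotation. Where a gene had several, the brightest on average over the 6 arrays stood for it. Genes above the 40th percentile of the array on at least 3 of the 6 arrays were tested (13009 of 18194). Values at or below that percentile are called background. For genes at background on all arrays of a group, the bound sets the bright group's mean against each dim array's 40th percentile or own value, whichever was higher. The differences of log2(intensity + 16), old minus young, were tested in limma 3.58.1 (R 4.3.3) on the 6 arrays alone, with no block, and p-values were adjusted over all genes tested (Benjamini-Hochberg).

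The genes compared and the 35 lists and 23 families were chosen with earlier results of these data known. Named genes are the 20 largest rises and the 20 largest falls among called genes whose groups do not overlap, leaving out provisional symbols. From each list or family up to 4 called members with the smallest adjusted p are named, or 2 as values where none passed, and some markers always (Kit, Ly6a, Slamf1, Cd34, Flt3, Cd48, Procr, Xist, S100a8, C1qa, Cd79b and Hba-a1). Other list members named with their change were chosen after their values were seen. Of 825 list symbols 771 were on the arrays. Replicates are labelled as biological, and whether animals were pooled is not given in the sources used here. Deviations of same-numbered old and young arrays from their group means correlated at 0.503, 0.405 and -0.002, so the numbers were not used as pairs.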

Additional observations from a re-analysis of the deposited data

Results flagged for a closer look

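Probe sets that the platform annotation gives no single gene were not used above, and some of them changed. Among 4564 such probe sets tested, 42 were higher (0.92%) and 36 lower (0.789%) in old HSC at an adjusted p under 0.05 (limma, over 27479 probe sets). The unnamed probe set with the largest rise was at 1058, 1195 and 1274 in old HSC, against 51.3, 85.2 and 107 in young HSC (log2 change 3.66, adjusted p 0.00109). The 1 with the largest fall was at 48.4, 35.3 and 71.7 in old HSC, against 419.5, 866 and 823 in young HSC (log2 change -3.37, adjusted p 0.00505). Young replicate 1 was the lowest young array for both.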

How the results depend on the processing

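The counts of genes higher in old HSC and of genes lower in old HSC were recomputed under other settings. Quantile normalization, median centring, a pseudocount of 1 or 64, other filters on dim genes, the mean of all probe sets and a trended robust fit gave 535 to 706 higher and 294 to 399 lower genes, against 676 and 381. Array weights gave 727 lower genes (1014 higher). With the replicate number as a block, 1018 were higher and 742 lower, and all 1057 calls were kept; the numbers are not known to pair the samples, and 4 of 6 arrays correlated best with their own number. With 1 array left out the higher genes ranged over 337 to 606 and the lower over 122 to 408. Counting young replicates 2 and 3 as 1 sample gave 361 and 128. Sharing the variance with the 6 HSC arrays of 32 weeks gave 160 and 33, of which 193 were among the 1057, and with all 16 arrays 158 and 29. As choices made after seeing the data, a block for the arrays of high spike-ins gave 716 and 360, and leaving both out gave 459 and 310. No called gene among the 178 named ones turned its direction in any of these settings, while Xist, which was not called, changed sign. Of the 178, 102 lost their call in the fit of 12 arrays and 102 in that of 16, 66 without young replicate 2 and 63 without young replicate 3. The cause was not tested. The 3 arrays a group limit the precision, and dim probe sets near background understate changes on the log2(intensity + 16) scale.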

Other observations

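Large gene families differed in how many members passed, against 5.2% higher and 2.93% lower over all genes. Of 53 tested Rab GTPases, which steer vesicles, 6 were higher (11.3%) and none lower (median 0.07), led by Rab40b at 467, 491 and 485 in old HSC, against 153, 156 and 120.0 in young HSC (log2 change 1.65, SE 0.117, adjusted p 0.000233). Rab11a (0.55), Rab34 (0.57) and Rab2a (0.51) were higher too. The higher Rab genes numbered 2, 5 and 5 without old replicates 1, 2 and 3, and 4, 1 and 3 without young replicates 1, 2 and 3. Of 19 C-type lectin receptors 4 were higher (21.1%), among them Clec7a, the beta-glucan receptor dectin-1, at 250.1, 248 and 206 in old HSC, against 83.6, 121 and 123 in young HSC (log2 change 1.01, SE 0.154, adjusted p 0.0072), and Clec14a (0.43), and 3 were called in each fit with 1 array left out. Of 224 solute carriers 11 were higher (4.91%) and 3 lower (1.34%), with a median of -0.02. Slc7a7, an amino acid exchanger, gave 219.5, 192 and 165 in old HSC, against 74.7, 60.9 and 82.8 in young HSC (log2 change 1.23, SE 0.139, adjusted p 0.00188), and Slc44a1, a choline transporter, gave 622, 537 and 599 in old HSC, against 309, 352 and 354 in young HSC (log2 change 0.77, SE 0.106, adjusted p 0.0051). Both were apart between the groups, and Slc16a12 (0.85) and the zinc transporter gene Slc30a4 (0.65) were also higher. The higher solute carriers numbered 6, 6 and 7 without old replicates 1, 2 and 3, and 8, 4 and 6 without young replicates 1, 2 and 3, and the lower ones 3, 1 and 0 without old replicates 1, 2 and 3, and 3, 0 and 0 without young replicates 1, 2 and 3. Of 322 zinc finger proteins 12 were higher (3.73%) and 1 lower (median 0.02), with the smallest p for Zfp932 (1.0), Zfp979 (1.03), Zfp334 (0.73) and Zfp37 (1.04). Their higher members numbered 8, 7 and 8 without old replicates 1, 2 and 3, and 9, 4 and 5 without young replicates 1, 2 and 3. Rab11a (0.52 to 0.56) was not called without young replicate 2. Rab34 (0.51 to 0.62) was not called without replicate 1 of old HSC or replicate 2 of young HSC. Rab2a (0.46 to 0.54) was not called without replicate 1 of old HSC or replicate 2 or 3 of young HSC. Clec14a (0.37 to 0.46) was called in no fit with 1 array left out.

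Krt8 and its partner Krt18, keratins of simple epithelia, were the higher ones of 22 keratins (9.09%, against 5.2% of all genes). Krt8 was at 108, 101 and 125 in old HSC, against 49.9, 39.4 and 54.6 in young HSC (log2 change 1.0, SE 0.126, adjusted p 0.00325), and Krt18 had a change of 0.86. The phosphatase receptor Ptprk gave 217, 280.3 and 165 in old HSC, against 38.3, 28.4 and 35.5 in young HSC (log2 change 2.22, SE 0.18, adjusted p 0.000467), Ptprv was higher (0.65) and Ptprs lower (-0.43). Of 17 imprinted genes Grb10 (0.52), an adaptor of insulin signalling, and Ndn were higher (11.8%, against 5.2% of all genes). Plagl1, a zinc finger factor, was lower (5.88%, against 2.93%), and the median was 0.04 with 12 positive. Plagl1 gave 16.5, 21.96 and 13.8 in old HSC, against 37.9, 52.04 and 51.9 in young HSC (log2 change -0.92, SE 0.137, adjusted p 0.00694), and its 1 other tested probe set had the opposite sign. Of 41 potassium channels Kcnk6 (1.14) and Kcnd3 (0.75) were higher and Kcnk12 (-0.67) and Kcnab2 (-0.6) lower. These are 4.88% each way, against 5.2% higher and 2.93% lower over all genes. Of 21 collagens Col16a1 (0.84) was higher (4.76%, against 5.2% of all genes). Both basement membrane chains Col4a1 (-0.65) and Col4a2 (-0.69) were lower (9.52%, against 2.93%). Cyclases and phosphodiesterases had 4 of 28 higher (14.3%, against 5.2% of all genes), Pde9a (0.96), Adcy6 (0.81), Adcy9 (0.82) and Pde8a (0.44). Other higher genes were Trim47 (1.26), the phosphatase gene Dusp4 (1.02), the kinesin gene Kif21a (0.9), Cldn12 (0.47), Gimap8 (0.52), Wars2 (0.63), Eif1a (0.51) and Eif4a2 (0.4), while Eif2ak2 (-0.59), the kinase PKR, was lower. Of 7 chaperonin subunits none passed in limma (1 below young HSC at an unadjusted p under 0.05), with -0.24 for Cct5 and -0.19 for Cct7. Krt18 (0.77 to 0.98), Ptprv (0.56 to 0.75), Col4a2 (-0.76 to -0.57) and Wars2 (0.5 to 0.71) were not called without young replicate 2 or 3. Ptprs (-0.5 to -0.39) and Kcnd3 (0.61 to 0.87) were not called without replicate 2 or 3 of old HSC or replicate 1, 2 or 3 of young HSC. Grb10 (0.49 to 0.57) was not called without replicate 1 of old HSC or replicate 3 of young HSC. Kcnk12 (-0.79 to -0.52) was not called without replicate 1, 2 or 3 of old HSC or replicate 2 of young HSC. Kcnab2 (-0.69 to -0.45) was not called without replicate 1, 2 or 3 of old HSC or replicate 2 or 3 of young HSC. Its 1 other tested probe set had the opposite sign. Col4a1 (-0.77 to -0.57), Cldn12 (0.44 to 0.51) and Eif1a (0.47 to 0.57) were not called without replicate 1 or 3 of old HSC or replicate 2 or 3 of young HSC. Adcy6 (0.7 to 0.94) and Kif21a (0.74 to 1.03) were not called without young replicate 2. Adcy9 (0.61 to 0.96) was not called without replicate 1 of old HSC or replicate 1, 2 or 3 of young HSC. Pde8a (0.4 to 0.51), Eif4a2 (0.37 to 0.45) and Eif2ak2 (-0.68 to -0.44) were called in no fit with 1 array left out. The 2 other tested probe sets of Eif2ak2 had the opposite sign. Gimap8 (0.45 to 0.58) was not called without replicate 2 or 3 of old HSC or replicate 2 or 3 of young HSC.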
